A study of Mus musculus with 10 samples.

Results

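The 35 genes described here encode proteins that build the ribosome. They were listed by name, from Polr1a of RNA polymerase I to the large subunit factor Ppan, with no threshold on any value, although earlier results of these data were known. All 35 were found among the 30205 genes of the files, and all 35 passed the filter on low counts that left 15583 genes for testing. RNA from C57BL/6 mouse cells, sorted as B lineage, had been sequenced as 10 libraries, 2 in each of 5 groups, in a study of joint NF-kB and Notch activation in B cells. Control cells were wild type. NF-kB-activated cells carried the Rosa-NIKdeltaT3flSTOP allele of NIK, a kinase of the NF-kB pathway encoded by Map3k14, with CD19Cre. Libraries labelled Notch-activated carried Rosa-Notch2ICN, the intracellular part of Notch2, with CD19Cre, and doubly activated and lymphoma cells carried both Rosa alleles with CD19Cre. Lymph node was the source of all groups but the lymphoma cells, which came from lymphoma tissue. The labelled cell type was the marginal zone precursor for control, NF-kB-activated and doubly activated cells, and the marginal zone B cell for Notch-activated ones. CD19Cre acts in the B lineage and is named for every group but the wild type control, so Cre itself and the alleles it switches on cannot be told apart here. The sources used here give neither age nor pooling. Nothing in the labels ties the 2 libraries of a group to different mice, and p-values therefore measure only the spread between these libraries.

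Ribosomes are assembled largely in the nucleolus. RNA polymerase I transcribes a long precursor of ribosomal RNA, small nucleolar ribonucleoproteins (snoRNPs) of the box C/D and box H/ACA kinds guide its methylation and pseudouridylation, and separate sets of factors fold, cut and export the small and the large subunit. Output is known to rise with growth and division in B cells, and the transcription factor Myc, which binds the E-box CACGTG, is known to drive many of these genes.

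Promoter sequence was read for the members from RefSeq (GRCm38.p6), as windows of 300 bases that reach from 250 before to 50 after a transcription start. Of the 35 genes, 31 matched a window. CACGTG, which reads the same on both strands, was present in 7 of the 34 member windows (20.6%) against 7.15% of all 32851 windows. The NRF1 motif, searched on both strands, was in 5 member windows (14.7% against 4.6%), and CCAAT, on both strands, in 9 (26.5% against 37.4%). The 7 genes whose window holds CACGTG are shown because this is the site Myc can bind, and Utp4 and Tsr1 are those of them called in most comparisons (4 of the 7 comparisons between 2 groups). Each line gives the motif in capitals with up to 12 bases on each side, in the direction of the gene. In GRCm38.p6 the stretches lie at chr6:125131811-125131840 on the plus strand for Nop2, chr8:106893643-106893672 (plus) for Utp4, chr10:13193092-13193121 (minus) for Ltv1, chr10:88826765-88826789 (minus) for Utp20, chr11:3963965-3963994 (plus) for Pes1, chr11:74898092-74898121 (plus) for Tsr1 and chr17:71616220-71616249 (plus) for Wdr43.
Nop2: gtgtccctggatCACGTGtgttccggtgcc
Utp4: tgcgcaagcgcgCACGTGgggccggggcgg
Ltv1: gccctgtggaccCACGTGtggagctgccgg
Utp20: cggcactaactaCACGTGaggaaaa
Pes1: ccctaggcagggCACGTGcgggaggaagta
Tsr1: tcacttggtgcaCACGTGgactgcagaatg
Wdr43: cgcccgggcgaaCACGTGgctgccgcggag
In Nop2 the motif begins upstream of the start, at position -60, and in the other 6 genes it begins 3 to 38 bases downstream of it.

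Depth was 16380889 to 23102081 estimated counts a library, and values are in CPM, counts scaled to library size with TMM factors, unless TPM is named. Across genes, log2 CPM correlated at 0.989 to 0.995 within groups, at 0.968 to 0.983 among the 3 precursor groups, at 0.912 to 0.925 between lymphoma and precursors, and at 0.865 to 0.892 when a Notch-labelled library was set against one of another group (genes are not independent replicates). For Map3k14, control libraries had 103 and 130 CPM, NF-kB-activated 220.0 and 217, doubly activated 244 and 255, lymphoma 153 in both and Notch-labelled 36.5 and 33.4. Notch2 went against the label in 2 of the 3 groups with the Notch2 allele: it was 284 and 278 CPM in the libraries labelled Notch-activated, 155 and 179 in lymphoma and 702 and 753 in doubly activated cells against 652 and 690 in control. The Notch target Heyl was 23.3 to 50.9 CPM in these 3 groups against 0.43 and 0.38 in control. Cr2, the complement receptor that marks marginal zone B cells and their precursors, was 111 and 110 CPM in the Notch-labelled and 28.5 and 23.3 in the lymphoma libraries against 1874 to 2940 elsewhere. Summed over 10 B cell markers, none of which was at 0 in any library, the level was 3666 to 3918 CPM in Notch-labelled and 5890 to 6137 in lymphoma libraries against 10780 to 13150 in the rest. One heavy chain V segment held over 92% of Ighv counts in each Notch-labelled (Ighv1-55, 92.8% and 93.8%) and each lymphoma library (Ighv1-11, 92.3% and 92.1%) and at most 7.29% elsewhere. Of light chain Igkv counts, Igkv12-41 held 92.7% and 94.1% in Notch-labelled and Igkv17-121 90.8% and 91.7% in lymphoma libraries, against at most 7.14% elsewhere. Both libraries of each of these groups thus shared a dominant segment pair, so comparisons with either group do not measure the spread between clones. The Y-linked gene Ddx3y was 59.8 CPM in control library 1, 0.65 in control library 2, 2.40 and 1.88 in Notch-labelled libraries and 110 to 187 in the rest. The 2 control libraries thus differed in RNA of male cells, as did Notch-labelled from NF-kB-activated, doubly activated and lymphoma libraries. The part of this difference in the results was not tested.

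Per length, these genes were abundant. Their median was 48.7 TPM over the 10 libraries against 12.5 TPM over all tested genes, and 33 of 35 lay above that median. Npm1, the nucleolar chaperone nucleophosmin, was highest at 1062 TPM, followed by the RNA-binding protein gene Ncl at 418 TPM. Dimt1, a methyltransferase of small subunit RNA, was lowest at 8.78 TPM. The group mean in CPM was highest in the Notch-labelled libraries for 27 members, in lymphoma for 6 (Ncl, Ddx21, Wdr43, Ltv1, Pes1 and Wdr12), in doubly activated cells for Gnl3 and in control for Dimt1. Libraries of the highest 2 groups overlapped for Ncl, Npm1, Wdr12, Ltv1, Gnl3 and Dimt1. On TPM the order was another: the Notch-labelled mean was highest for 31 members, Ncl, Wdr43, Pes1 and Gnl3 among them, lymphoma for Ddx21 and Wdr12, and control for Dimt1 and Ltv1. The lowest mean in CPM was that of NF-kB-activated cells for 26 members, and on TPM for 16.

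Each library was set against the mean of the 2 control libraries. The median log2 ratio over the 35 genes was 0.63 and 0.58 in the Notch-labelled libraries, 0.29 and 0.24 in lymphoma, 0.02 and 0.00 in doubly activated and -0.12 and -0.23 in NF-kB-activated libraries. All 4 comparisons against control share its libraries, which stood at -0.01 and 0.01, and the pooled SD between libraries of a group was 0.042. The Notch-labelled libraries each had 33 members above both controls, where 47.4% and 47.7% of all tested genes were above both, and the lymphoma libraries had 27 and 25 (all genes 44.5% and 44.2%). The doubly activated libraries had 13 and 11 above and 13 and 12 below, near the shares of all genes (37.5% and 38.5% above, 34% and 36.2% below). The NF-kB-activated libraries had 4 and 2 above and 21 and 31 below (all genes 36.6% and 36.1% above, 34.9% and 34.1% below). In the bulk RNA of a sorted population, fewer cells of a type and less RNA per cell cannot be told apart.

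**Figure D1:**
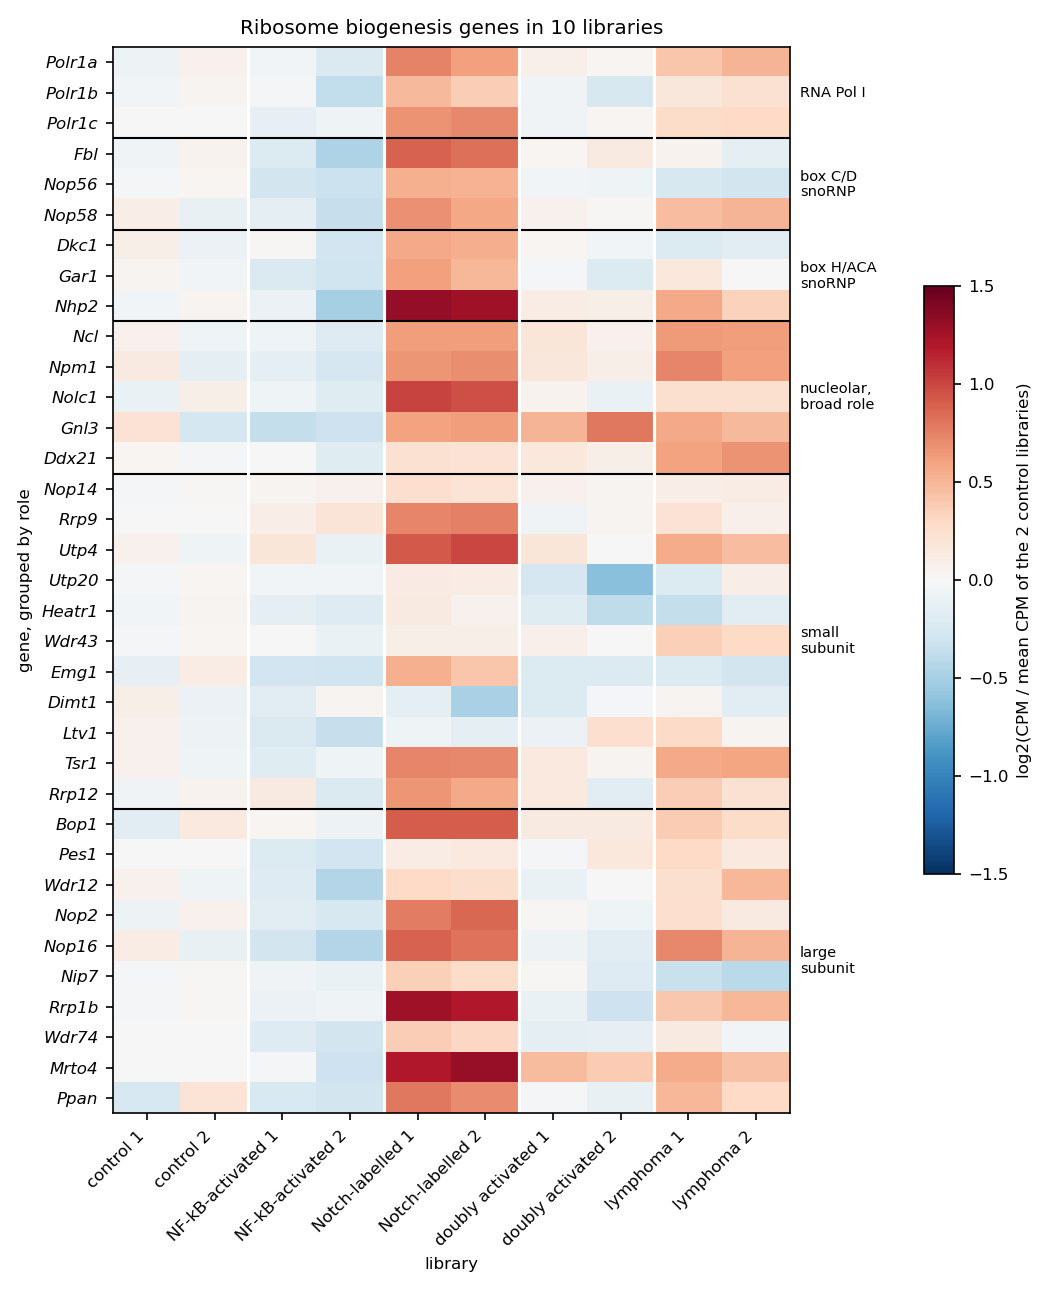
Log2 ratio of CPM to the control mean (colour, from -1.5 to 1.5) for the 35 genes (vertical axis, grouped by role) in the 10 libraries (horizontal axis). The 2 Notch-labelled columns are red for most genes, with Nhp2, Rrp1b and Mrto4 darkest, the lymphoma columns are paler red with blue cells for Nip7 and Nop56, and the NF-kB-activated columns are pale blue.

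The Notch-labelled libraries showed higher ribosome biogenesis transcripts in every role. Of the 35 genes, 29 rose against control and 0 fell (edgeR, adjusted p under 0.05), where 34.2% of all tested genes rose and 29.5% fell (63.7% in either direction). No member fell at an unadjusted p under 0.05 either, and DESeq2 called 28 rises and 0 falls. The median log2 fold change was 0.62 (range -0.30 to 1.30) against 0.07 for all genes. These libraries also held 956 and 1289 CPM of 10 stromal markers, none of them at 0, against 8.70 to 13.5 elsewhere with Dcn and Lum at 0 in all 8 other libraries, and the part of these cells in the result was not tested.

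All 3 RNA polymerase I subunit genes rose. Polr1a, the largest subunit (chromosome 6, 71909053 to 71984935, GRCm38), was 91.6 and 101 CPM in control and 161 and 147 CPM in Notch-labelled libraries. The groups did not overlap, where 47.4% and 47.7% of all tested genes lay above both controls in Notch-labelled library 1 and 2, each taken alone. The share above in both libraries at once was not computed. The difference for Polr1a was log2 0.68 ± 0.09 (SE; adjusted p = 2.6e-05). Polr1c, shared with RNA polymerase III, rose from 41.8 and 42.2 to 67.0 and 69.0 CPM, log2 0.70 ± 0.08 (adjusted p = 1.03e-05). Among the box C/D proteins, Fbl, the fibrillarin methyltransferase (chromosome 7, 28169710 to 28179269), went from 135 and 145 to 259 and 250 CPM, log2 0.86 ± 0.10 (adjusted p = 8.8e-06). Nop58, a scaffold of the same particle, rose by log2 0.64 ± 0.09 from 102 and 88.4 to 154 and 142 CPM (adjusted p = 7.13e-05). All 3 members of each snoRNP kind rose.

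Nhp2, an RNA-binding protein of the box H/ACA particle (chromosome 11, 51619735 to 51623714), had the largest fold change of the 35 genes in this comparison. It was 39.6 and 42.1 CPM in control and 102 and 98.8 CPM in Notch-labelled libraries, log2 1.30 ± 0.12 (adjusted p = 1.81e-06). Dkc1, the pseudouridine synthase of that particle, rose from 80.3 and 70.9 to 112 and 110 CPM, log2 0.56 ± 0.10 (adjusted p = 0.000397). The nucleolar proteins of broad role all rose too. Nolc1, which shuttles snoRNPs, went from 87.5 and 99.9 to 189 and 182 CPM (log2 0.99 ± 0.09, adjusted p = 1.01e-06). Npm1 (chromosome 11, 33152287 to 33163206) went from 680 and 563 to 985 and 1008 CPM (log2 0.68 ± 0.10, adjusted p = 5.09e-05). Ncl (chromosome 1, 86344719 to 86359400) went from 770.0 and 700.3 to 1139 and 1131 CPM (log2 0.63 ± 0.08, adjusted p = 2.55e-05).

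Among the members, the subunit factors divided. Of 10 large subunit factors 9 rose, with a median of 0.78, whereas of 11 small subunit factors 6 rose, with a median of 0.23. The difference between the 2 roles was not tested. It was not seen in the medians of further genes of these roles outside the members. Of 38 other small subunit factors 14 rose and 5 fell, with a median of 0.21. Of 41 other large subunit factors 20 rose and 6 fell, with a median of 0.23. Mrto4, a factor of the large subunit stalk (chromosome 4, 139347435 to 139352576), rose from 28.5 and 28.8 to 66.0 and 70.6 CPM (log2 1.25 ± 0.11, adjusted p = 6.9e-07). Rrp1b, a nucleolar factor of the large subunit (chromosome 17, 32036100 to 32062865), rose from 41.8 and 43.1 to 102 and 97.7 CPM (log2 1.23 ± 0.09, adjusted p = 1.78e-07). Of the small subunit set, Utp4, in the first complex to bind the precursor RNA, rose from 33.6 and 30.8 to 60.8 and 64.5 CPM (log2 0.96 ± 0.11, adjusted p = 1.13e-05) and Rrp9 from 39.8 and 39.9 to 66.2 and 67.1 CPM (log2 0.74 ± 0.09, adjusted p = 1.21e-05). The 6 genes that did not pass were the small subunit factors Utp20, Heatr1, Wdr43, Dimt1 and Ltv1, at log2 -0.30 to 0.12, and Pes1 of the large subunit at log2 0.12.

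Of the 29 rises, 23 held in every alternative fit. Wdr12 was lost with DESeq2 (adjusted p = 0.0575), and without Notch-labelled library 1 Ddx21, Nip7, Nop14, Polr1b, Wdr12 and Wdr74 were lost, which left 23 called.

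**Figure D2:**
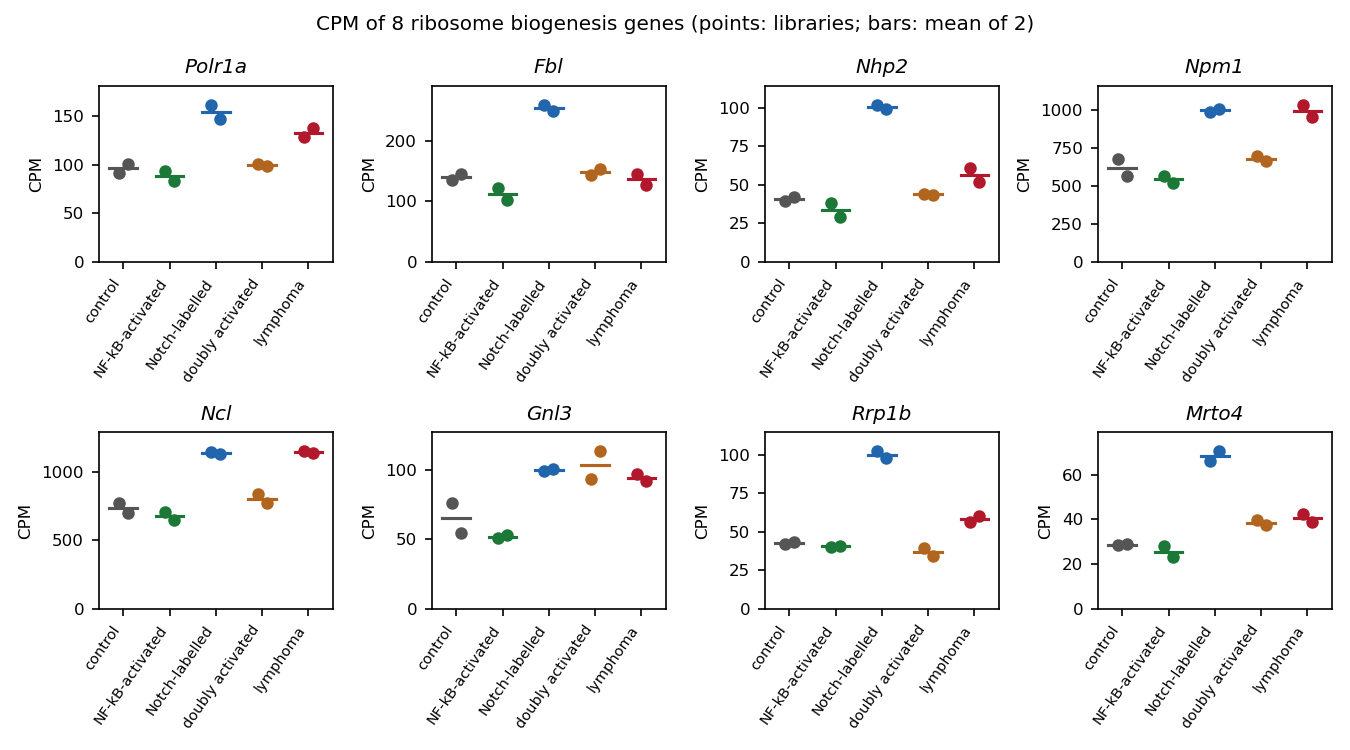
CPM (vertical axis, from 0) of 8 of the genes in each group (horizontal axis), where points are libraries and bars the mean of 2. The Notch-labelled points of Polr1a, Fbl, Nhp2, Rrp1b and Mrto4 lie above those of all other groups, Ncl and Npm1 reach similar levels in lymphoma (1147 and 1133, 1033 and 951 CPM), and Gnl3 is 93.0 and 113 CPM in doubly activated cells.

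The rest of the pathway was read from 117 other genes of ribosome assembly. Of these 55 rose and 15 fell in Notch-labelled libraries, with a median of 0.26. Ruvbl2, an ATPase of snoRNP assembly, rose from 50 and 52.4 to 149 and 141 CPM (log2 1.5 ± 0.10, adjusted p = 9.32e-08). Pelp1, a large subunit factor, rose from 44.0 and 50.2 to 116 and 110 CPM (log2 1.26 ± 0.09, adjusted p = 1.19e-07). Ubtf, which opens ribosomal DNA to RNA polymerase I, rose from 248 and 276 to 345 and 332 CPM (log2 0.37 ± 0.08, adjusted p = 0.00112), while Rrn3, which recruits that polymerase, was at log2 0.12 ± 0.09 (adjusted p = 0.23). Cavin1, listed as a release factor of RNA polymerase I and better known as a coat protein of caveolae, was 48.9 and 65.6 CPM in the Notch-labelled libraries and at most 0.21 CPM elsewhere.

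The genes for the ribosomal proteins themselves did not show the same pattern. Of 32 genes tested, 4 rose and 11 fell in Notch-labelled libraries, with a median of -0.10. Rps6, a small subunit protein, fell from 1078 and 964 to 418 and 427 CPM (log2 -1.27 ± 0.08, adjusted p = 4.67e-08), and Rpl30 of the large subunit from 746 and 714 to 393 and 376 CPM. Proliferation genes moved with the 35 genes. All 28 cell cycle genes rose, with a median of 2.32, and Mki67 was 193 and 115 CPM in control and 835 and 819 CPM in Notch-labelled libraries. Myc was 246 and 125 CPM in control and 287 and 282 CPM in Notch-labelled libraries (log2 0.62 ± 0.36, adjusted p = 0.187). The part of division and of Myc in the result was not tested.

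**Figure D3:**
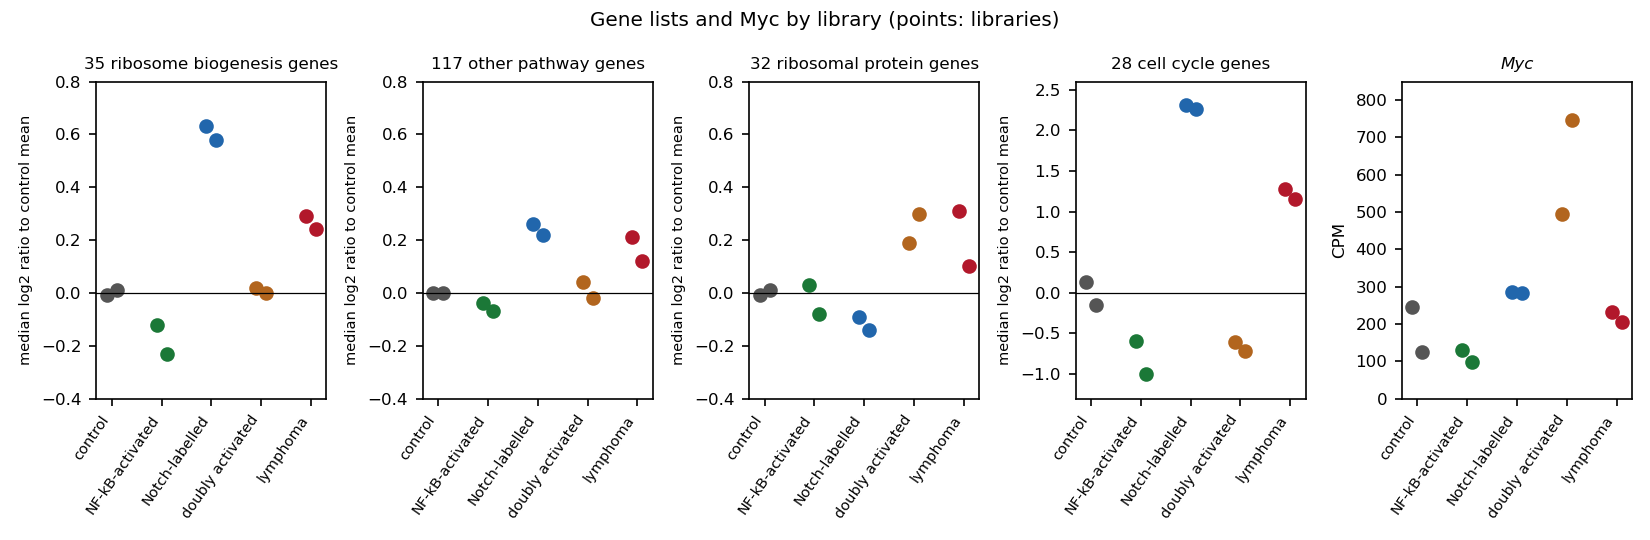
Median log2 ratio to the control mean (vertical axis) in each library (points, by group on the horizontal axis) for the 35 genes, 117 other pathway genes, 32 ribosomal protein genes and 28 cell cycle genes (on a wider axis), and CPM of Myc. The doubly activated libraries have the highest Myc, at 496 and 747 CPM, and member medians of 0.02 and 0.00.

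With NF-kB activation alone few of the 35 genes were called against control. By edgeR 3 fell, Fbl and Nop56 of the box C/D particle and Emg1, a small subunit methyltransferase. Over all genes 6.6% fell and 8.72% rose (15.3% in either direction). By edgeR 0 members rose, also at an unadjusted p under 0.05 and with DESeq2, which called 4 falls, and 12 fell at an unadjusted p under 0.05. The median was -0.16 (range -0.35 to 0.15) against 0.00 for all genes.

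Fbl was 122 and 102 CPM in NF-kB-activated cells, log2 -0.32 ± 0.10 against control (adjusted p = 0.0456). Nop56 was 173 and 168 CPM against 204 and 214 in control, log2 -0.30 ± 0.07 (adjusted p = 0.0113). Emg1 was 65.6 and 65.0 CPM against 73.7 and 86.3 (log2 -0.29 ± 0.09, adjusted p = 0.0438). These 3 genes did not overlap between the groups, where 34.9% and 34.1% of all tested genes lay below both controls in NF-kB-activated library 1 and 2, each taken alone. The share below in both libraries at once was not computed. Polr1a, at 93.2 and 83.1 CPM, and Ncl, at 701 and 644 CPM, were both at log2 -0.13 (adjusted p = 0.411 and 0.349), and Npm1, at 568 and 521 CPM, was at log2 -0.19 ± 0.10 (adjusted p = 0.228).

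None of the 3 falls held in every alternative: none was called in the fit of the compared groups alone or without NF-kB-activated library 2, and 1 was called without either Notch-labelled or either doubly activated library. Of 28 cell cycle genes 21 fell (median -0.84), and neutrophil markers summed to 438 and 129 CPM in the NF-kB-activated libraries, with none of 10 at 0, against 0.62 and 17.1 in control, with 5 and 1 at 0. The part of either in the result was not tested. Of the 117 other pathway genes 1 rose (Znhit6, log2 0.47 ± 0.14, adjusted p = 0.0382) and 0 fell by edgeR, while 9 fell at an unadjusted p under 0.05 and 1 with DESeq2.

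With both alleles active in precursor cells, again few of the 35 genes were called. Against control 2 rose and 1 fell, where 10.5% of all genes rose and 9.3% fell (19.8% in either direction), and the median was -0.01 (range -0.42 to 0.66) against 0.00. Gnl3, the nucleolar GTPase nucleostemin (chromosome 14, 31012433 to 31019152), was 93.0 and 113 CPM against 76.0 and 54.5 in control, log2 0.66 ± 0.14 (adjusted p = 0.00601). Mrto4 was 39.6 and 37.4 CPM against 28.5 and 28.8, log2 0.43 ± 0.11 (adjusted p = 0.0148). Neither gene overlapped between the groups, where 37.5% and 38.5% of all tested genes lay above both controls in doubly activated library 1 and 2, each taken alone. The share for both libraries at once was not computed. Utp20, a large scaffold protein of the small subunit, was 62.9 and 48.4 CPM against 73.0 and 76.5, log2 -0.42 ± 0.12 (adjusted p = 0.0313).

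The 3 calls did not hold in every alternative. Without doubly activated library 2, Gnl3 (adjusted p = 0.0605) and Utp20 (0.291) were lost, and without doubly activated library 1, Mrto4 (0.0864). Utp20 was also lost without either control or either Notch-labelled library (0.0563 to 0.115). Gnl3 also differed by 0.48 on the log2 scale between the 2 control libraries, more than any other member. Ncl, Npm1, Fbl and Polr1a were at log2 0.13 ± 0.08, 0.13 ± 0.10, 0.08 ± 0.10 and 0.05 ± 0.09 (adjusted p of 0.324 to 0.756).

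Myc rose in the doubly activated cells. It was 496 and 747 CPM there, log2 1.75 ± 0.37 against control (adjusted p = 0.0243) and 2.45 ± 0.38 against NF-kB-activated cells, at 130 and 96.8 CPM (adjusted p = 0.0118). The cell cycle list fell against control in 14 of 28 genes (median -0.71), with 0 rises, also at an unadjusted p under 0.05 and with DESeq2. Of 32 ribosomal protein genes 8 rose and 0 fell by edgeR, as at an unadjusted p for falls, while DESeq2 called 12 rises. The heat shock gene Hspa1a was 234 and 3.05 CPM in control and 126 and 255 in doubly activated libraries. It was at most 6.71 in the other libraries, and its part in these values was not tested. For the list of 14 immediate early and stress genes, the median against control was 1.31, with 6 called higher and 1 lower. The part of this list in the Myc values was not tested.

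Adding the Notch2 allele to the NIK allele gave 6 rises and 0 falls among the 35 genes (doubly against NF-kB-activated cells), where 6.62% of all genes rose and 7.28% fell (13.9% in either direction). At an unadjusted p under 0.05 there were 13 rises and 1 fall, and DESeq2 called 8 and 0. The median was 0.15 (range -0.38 to 0.99) against 0.00 for all genes, and 0.02 against -0.09 on TPM. Gnl3 rose from 51.0 and 52.6 to 93.0 and 113 CPM, log2 0.99 ± 0.14 (adjusted p = 0.00105), and was called in every alternative fit. Mrto4 rose from 28 and 23.2 CPM (log2 0.59 ± 0.11, adjusted p = 0.00405), and Fbl from 122 and 102 to 143 and 154 CPM (log2 0.40 ± 0.10, adjusted p = 0.0189).

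Smaller rises were measured for Npm1 (log2 0.32 ± 0.10, adjusted p = 0.0454), Pes1, of the complex it forms with Bop1 and Wdr12 (log2 0.31 ± 0.09, adjusted p = 0.0294), and Nop56 (log2 0.24 ± 0.07, adjusted p = 0.0364). Ncl was at log2 0.25 ± 0.08 (adjusted p = 0.0569) and Polr1a at 0.18 ± 0.09 (adjusted p = 0.217). The count of rises was 1 without NF-kB-activated library 2, 2 without doubly activated library 2, 3 without either Notch-labelled library and 3 with library size alone as the scale. Nop56, Npm1 and Pes1 were lost without either NF-kB-activated library or doubly activated library 2 (adjusted p of 0.1 to 0.294), and Fbl without NF-kB-activated library 2 (0.212) or doubly activated library 2 (0.154). Mrto4 was lost without NF-kB-activated library 2 (0.0527). Between these groups 9 of 10 neutrophil markers fell (summed 438 and 129 against 6.57 and 0.39 CPM), 4 of 10 macrophage markers fell (226 and 157 against 48.9 and 24.9 CPM), and 9 of 14 immediate early and stress genes rose with a median of 3.36. Their part in the result was not tested.

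**Figure D4:**
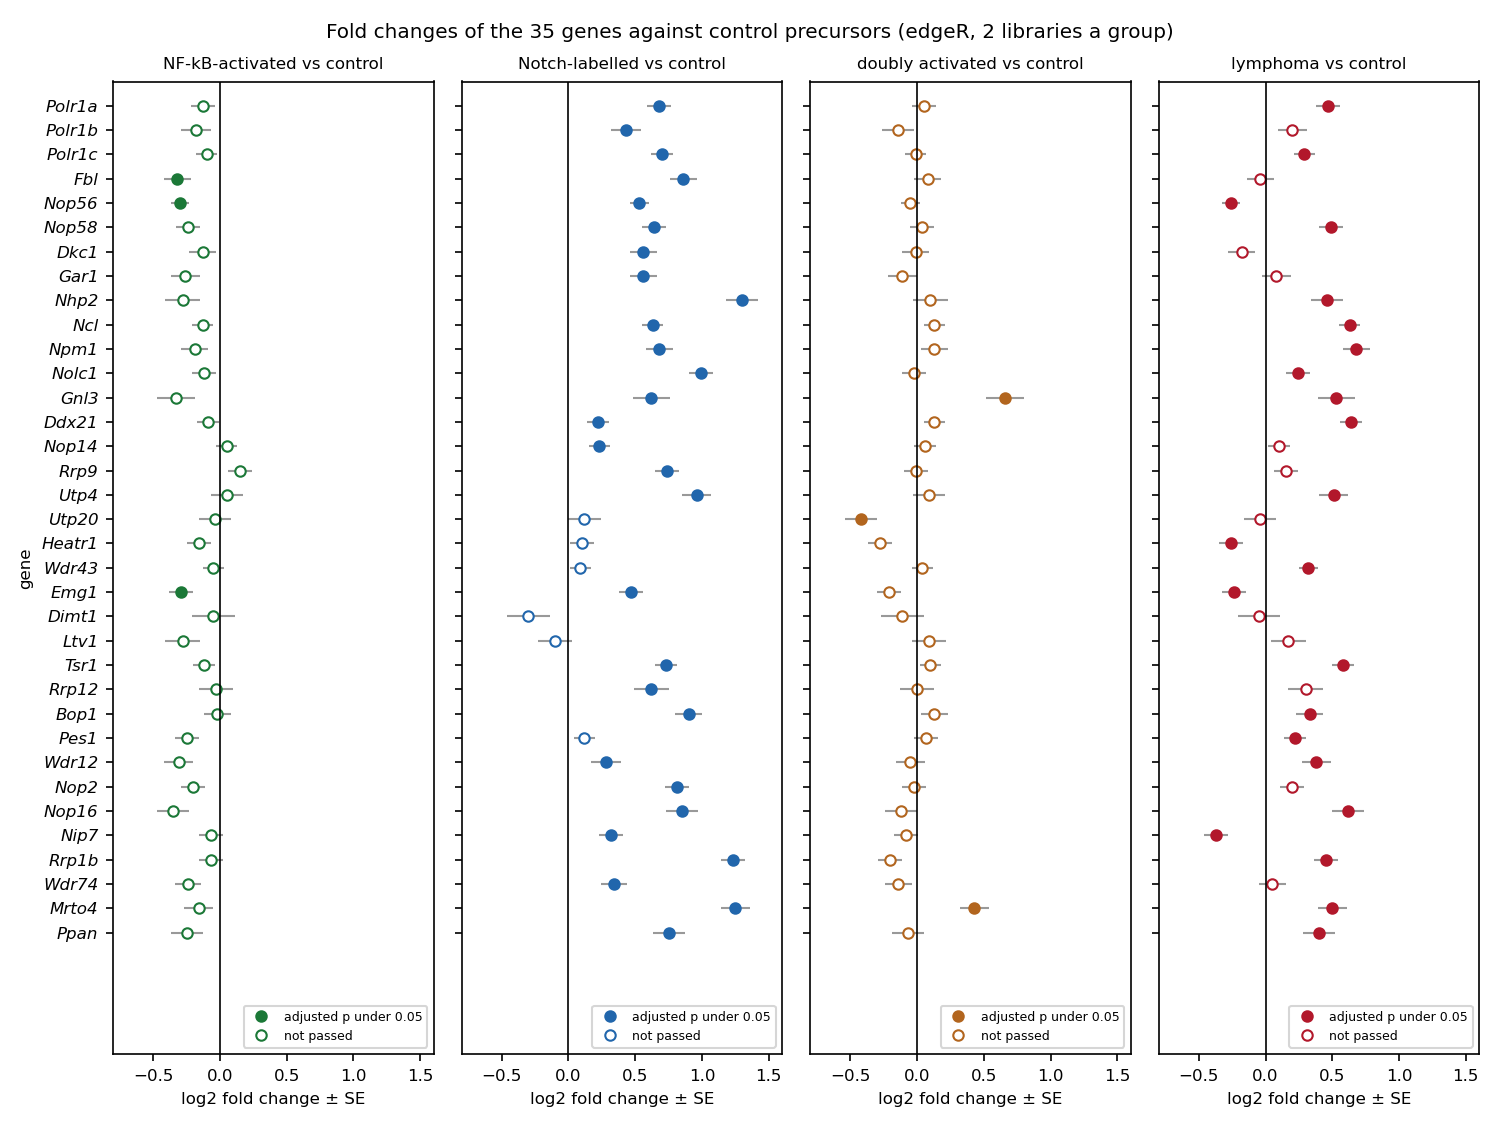
Log2 fold change against control ± SE (horizontal axis) of the 35 genes (vertical axis) in 4 comparisons that share the control libraries, where filled points have an adjusted p under 0.05 by edgeR. Filled points number 3, 29, 3 and 23 from left to right, and in lymphoma Nop56, Heatr1, Emg1 and Nip7 lie left of 0.

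Against the Notch-labelled libraries, the doubly activated cells had lower levels of most of the 35 genes. By edgeR 28 fell and 0 rose, where 33.2% of all genes fell and 30.9% rose (64.2% in either direction). The count of rises was also 0 at an unadjusted p under 0.05 and with DESeq2, and the median was -0.59 (range -1.44 to 0.19) against -0.02. The 2 groups differ in labelled cell type, dominant V segments, stromal RNA and Ddx3y as well as in the NIK allele. These differences cannot be told apart here. The lowest value was that of Rrp1b, which fell from 102 and 97.7 to 39.5 and 34.2 CPM (log2 -1.44 ± 0.09, adjusted p = 5.43e-08). Nhp2 was 44.1 and 43.4 CPM in doubly activated cells (log2 -1.20 ± 0.12, adjusted p = 3.47e-06), and Nolc1 was 96.9 and 87.5 CPM (log2 -1.01 ± 0.09, adjusted p = 8.1e-07).

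Polymerase and snoRNP genes fell together: Polr1c and Polr1a by log2 -0.71 ± 0.08 and -0.63 ± 0.09, Fbl and Nop58 by -0.78 ± 0.10 and -0.59 ± 0.09, and Gar1 of the box H/ACA particle by -0.67 ± 0.11, with adjusted p of 8.72e-06 to 0.000125. Utp4 and Rrp9 of the small subunit fell by -0.87 ± 0.11 and -0.75 ± 0.09, and Nop16 of the large subunit by -0.97 ± 0.12. Npm1 and Ncl fell by -0.55 ± 0.10 and -0.50 ± 0.08. The 7 genes that did not pass were Gnl3, Ddx21, Nop14, Wdr43, Dimt1, Ltv1 and Pes1. Of the 28 falls 27 held in every alternative, Wdr12 being lost without doubly activated library 1 or either Notch-labelled library (adjusted p of 0.0697 to 0.183). Of the other 117 pathway genes 55 fell and 16 rose, of 28 cell cycle genes 28 fell, and of 32 ribosomal protein genes 23 rose and 1 fell.

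The interaction asks whether the difference made by both alleles equals the sum of the 2 single differences. It was negative for 23 of the 35 genes and positive for 0 by edgeR, where 25.6% of all genes were negative and 23.9% positive (49.5% in all), with a median of -0.42 (range -1.37 to 0.47) against -0.05. At an unadjusted p under 0.05, 1 gene was positive, and DESeq2 called 22 negative and 0 positive values. The negative values were -1.37 ± 0.13 for Rrp1b, -0.92 ± 0.16 for Utp4, -0.92 ± 0.18 for Nhp2, -0.90 ± 0.13 for Rrp9, -0.89 ± 0.12 for Nolc1 and -0.75 ± 0.14 for Bop1, with adjusted p of 3.94e-06 to 0.000921. The Notch-labelled libraries enter this value with their own cell type label, dominant V segments, stromal RNA and low Ddx3y. These and the alleles cannot be told apart in it. The count of negative genes was 11 without NF-kB-activated library 1, 12 without Notch-labelled library 1 and 13 without doubly activated library 2. That of positive genes was 2 without control library 2 or doubly activated library 1 and 1 without lymphoma library 2.

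The lymphoma cells carried the same alleles as the doubly activated precursors. The 2 groups differed in source tissue and dominant V segments, which cannot be told apart here. Many of the 35 genes were higher in lymphoma. By edgeR 18 rose and 2 fell, where 26.1% of all genes rose and 25.2% fell (51.3% in either direction), and the median was 0.27 (range -0.29 to 0.74) against 0.01. On TPM, which divides counts by effective transcript length and was not tested, the medians were 0.06 and -0.11. Polr1c, called a rise, was at -0.03 on TPM. Among called rises, libraries overlapped on TPM for Polr1c, Polr1b (log2 0.04), Nhp2 (0.09), Nolc1 (0.10), Nop2 (0.06) and Utp20 (0.21). All 3 polymerase genes rose: Polr1a went from 101 and 98.3 to 128 and 138 CPM (log2 0.41 ± 0.09, adjusted p = 0.0018), and Polr1b, the second subunit, from 51.3 and 45.3 to 60.0 and 62.7 CPM (log2 0.34 ± 0.11, adjusted p = 0.0239). Of 5 nucleolar proteins of broad role 4 rose. Npm1 went from 696 and 662 to 1033 and 951 CPM (log2 0.55 ± 0.10, adjusted p = 0.000439), and Ncl from 833 and 771 to 1147 and 1133 CPM (log2 0.51 ± 0.08, adjusted p = 0.000217). Of the 117 other pathway genes 44 rose and 16 fell, with a median of 0.16. Of 28 cell cycle genes 26 rose and 1 fell (median 1.75). Of 10 B cell markers 9 fell and 0 rose, and of 7 tested plasma cell markers 6 rose and 0 fell. The part of division and of these cell type markers in the result was not tested.

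The gene totals of the snoRNP proteins were divided in lymphoma. Nop58 rose from 99.8 and 96.1 to 132 and 136 CPM (log2 0.45 ± 0.09, adjusted p = 0.00156), whereas Nop56, its partner in the box C/D particle, fell from 203 and 200 to 177 and 173 CPM (log2 -0.20 ± 0.07, adjusted p = 0.0267). On coding transcripts alone Nop56 overlapped, at 94.4 and 89.4 TPM in doubly activated and 90.7 and 102 TPM in lymphoma libraries. Fbl, the third protein of the particle, was at -0.12 ± 0.10 (adjusted p = 0.34). Nhp2 rose from 44.1 and 43.4 to 60.7 and 51.9 CPM (log2 0.36 ± 0.12, adjusted p = 0.0266). Among subunit factors, Nop16 rose from 27.4 and 25.9 to 47.8 and 41.3 CPM (log2 0.74 ± 0.12, adjusted p = 0.000185) and Rrp1b from 39.5 and 34.2 to 56.3 and 60.0 CPM (log2 0.65 ± 0.09, adjusted p = 7.02e-05). Tsr1, a GTPase-like factor of late small subunit assembly, rose from 89.0 and 83.2 to 120 and 122 CPM (log2 0.49 ± 0.08, adjusted p = 0.000271), and Utp4 from 36.6 and 32.1 to 47.4 and 44.3 CPM (log2 0.41 ± 0.11, adjusted p = 0.00867).

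Of these 20 calls 8 held in every alternative. Without doubly activated library 2 the number of rises was 10, and Utp4 (adjusted p = 0.0842) and Polr1b (0.176) were among those lost. Without lymphoma library 1 it was 12, and Nhp2 (0.204), Polr1b (0.0601) and Utp4 (0.0593) were among those lost. Nhp2 was also lost without either doubly activated library (0.094 and 0.109), and Polr1b without lymphoma library 2 (0.107). Of the 2 falls, Nop56 was lost without lymphoma library 2 or either doubly activated or Notch-labelled library (0.053 to 0.105), and Nip7 without lymphoma library 2 (0.0895) or doubly activated library 1 (0.191).

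Against control, 19 of the 35 genes rose and 4 fell in lymphoma, where 27.8% of all genes rose and 25.6% fell (53.4% in either direction). The median was 0.29 (range -0.37 to 0.68) against 0.02 in edgeR, but -0.02 against -0.18 on TPM, so the sign of the members' median depends on the unit, while the members stood 0.27 and 0.16 above all genes. Of the 23 called genes 3 had the opposite sign on TPM, Polr1c (-0.22), Pes1 (-0.17) and Nolc1 (-0.03), and against the all-gene median on TPM 1 did, Polr1c (-0.04). Libraries overlapped on TPM for the called rises Nolc1, Nhp2 (log2 0.06), Wdr43 (0.05), Bop1 (0.06) and Ppan (0.19). All 5 nucleolar proteins of broad role rose. Npm1 rose to 1033 and 951 CPM (log2 0.68 ± 0.10, adjusted p = 7.87e-05), Ddx21, an RNA helicase, from 250 and 241 to 372 and 392 CPM (log2 0.64 ± 0.08, adjusted p = 2.35e-05) and Ncl to 1147 and 1133 CPM (log2 0.63 ± 0.08, adjusted p = 3.33e-05). Nop16 (log2 0.62 ± 0.12), Tsr1 (0.58 ± 0.08), Utp4 (0.51 ± 0.11) and Mrto4 (0.50 ± 0.11) rose as well, with adjusted p of 5.98e-05 to 0.00231.

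The other named members in lymphoma against control were Polr1a at log2 0.47 ± 0.09 (adjusted p = 0.000738), Polr1c at 0.29 ± 0.08 (0.00998; on TPM lower without overlap, 68.5 and 75.6 against 80.7 and 87.0 in control), Nop58 at 0.49 ± 0.09 (0.000767), Nhp2 at 0.46 ± 0.12 (0.00719) and Fbl at -0.04 ± 0.10 (0.759). The 4 falls were Nip7, a large subunit factor (log2 -0.37 ± 0.09, adjusted p = 0.00431), Nop56 (-0.26 ± 0.07, 0.00723), Heatr1 (-0.26 ± 0.09, 0.0358) and Emg1 (-0.24 ± 0.09, 0.0373). Of the 23 calls 13 held in every alternative. Polr1c was lost with DESeq2 (adjusted p = 0.0528), Nhp2 without lymphoma library 1 (0.0778), and Heatr1 and Emg1 with the replicate number as a block (0.0526 and 0.0546), without control library 2 (0.131 and 0.294) or without either Notch-labelled library (0.0553 to 0.06). The count of falls was 2 in each of those fits and without lymphoma library 1, where Heatr1 (0.257) and Emg1 (0.0651) were lost. Emg1 was lost as well without lymphoma library 2 (0.166), and the count of rises without lymphoma library 1 was 13.

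Of the 117 other pathway genes 46 rose and 12 fell in lymphoma against control, with a median of 0.17. Pno1, a small subunit factor, rose from 20.1 and 18.6 to 47.6 and 44.9 CPM (log2 1.26 ± 0.12, adjusted p = 1.81e-06), and Wdr3, another, from 82.5 and 84.6 to 161 and 171 CPM (log2 0.99 ± 0.08, adjusted p = 8.45e-07). Rrn3 rose from 57.0 and 52.3 to 66.5 and 70.5 CPM (log2 0.33 ± 0.09, adjusted p = 0.0072), whereas Ubtf fell from 248 and 276 to 211 and 198 CPM (log2 -0.36 ± 0.08, adjusted p = 0.00178). Of 32 ribosomal protein genes 14 rose and 4 fell, and of 28 cell cycle genes 24 rose and 1 fell (median 1.27). Myc was 232 and 204 CPM, log2 0.23 ± 0.36 against control (adjusted p = 0.63). Against doubly activated cells Myc fell, at log2 -1.51 ± 0.37 (adjusted p = 0.0161). In that comparison the list of 14 immediate early and stress genes had a median of -2.11, with 10 called lower and 1 higher. Against control its median was -0.59, with 6 called lower and 2 higher. The part of this list in the Myc values was not tested. Plasma cell markers summed to 3164 and 3232 CPM in lymphoma, none of 8 at 0, against 554 to 1045 CPM in all other libraries, with Tnfrsf17 at 0 in 5 of them. Their part in the result was not tested.

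Most of the 35 genes followed the median of the others across the 10 libraries. As a description, each gene's log2 CPM was correlated with the median of the other 34, over libraries that share groups, depth and scaling. The median r was 0.89, with 23 genes at 0.8 or more, led by Nhp2 (0.99), Gar1, Nop2 and Polr1c (each 0.97). The Notch-labelled libraries, highest for 27 members, enter every r. The like share over all tested genes was not computed, so these r do not set the members apart from other genes. The 5 genes under 0.5 were Wdr43 (0.49), Nip7 (0.48), Utp20 (0.42), Ltv1 (0.20) and Dimt1 (-0.56). Of these, 4 belong to the small subunit. In Notch-labelled libraries against control the median log2 fold change was 0.12 (range -0.10 to 0.96) for the 7 genes with CACGTG in a window and 0.59 (range -0.30 to 1.30) for the 24 matched genes without it. In lymphoma against control the medians were 0.22 and 0.26. Of the genes with CACGTG, Utp4, Ltv1, Utp20, Tsr1 and Wdr43 are small subunit factors (median of that role in Notch-labelled libraries 0.23). Nop2 and Pes1 are large subunit factors (0.78). Motif and role were not separated.

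Gene totals include transcripts that encode no protein. Of the members' summed TPM, 70.1% to 75.0% lay on protein-coding transcripts and 17.2% to 23.1% on transcripts with a retained intron, the latter lowest in the Notch-labelled libraries (17.2% and 18.2%, against 20.4% to 23.1% elsewhere). For Ncl only 7.55% to 13.1% of TPM lay on coding transcripts. Its coding TPM was 36.3 and 32.1 in control, 64.6 and 69.1 in Notch-labelled and 39.6 and 44.7 in lymphoma libraries, and did not overlap between control and either. For Nhp2 the coding share ran from 43.9% to 90.1%, with coding TPM of 32.6 and 39.7 in control, 121 and 116 in Notch-labelled and 58.7 and 65.4 in lymphoma libraries. Its gene TPM, over all transcripts, overlapped between control (72.4 and 75.8) and lymphoma (81.7 and 72.6). Rrp1b had 10.9% to 28.4% on coding transcripts, and its coding TPM was 3.75 and 6.41 in control and 21.7 and 9.03 in Notch-labelled libraries. Nop56, called a fall in lymphoma, had coding TPM of 96.3 and 108 in control and 90.7 and 102 in lymphoma libraries, which overlapped. How estimated counts were divided between such transcripts is the counting tool's estimate.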

How the data were processed

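RNA sequencing libraries of sorted mouse B lineage cells were read from 1 file each. The authors deposited estimated counts and TPM per transcript, per the file headers, with no normalization of the estimated counts. TPM in the deposited files is scaled by effective transcript length. Kallisto 0.44.0 and the build mm10 are named in the submitters' processing notes. For the transcript release the sources used here give nothing. Of 88198 transcripts 86031 matched GENCODE M21 (GRCm38) and were summed to 30205 genes. The 2167 unmatched ones, with 1.09% to 1.38% of counts, were left out. Of the other pathway genes listed, Polr1h and Exosc6 were not matched.

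Gene sums were rounded and tested with edgeR 4.0.16 in R 4.3.3 (filterByExpr with minimum count 10 and minimum total 15, TMM, robust quasi-likelihood fit of 10 libraries in 5 groups, 5 residual degrees of freedom, biological coefficient of variation 0.121). P-values are two-sided and were adjusted by Benjamini and Hochberg's method over 15583 genes, with calls at 0.05, in each of 8 comparisons. TPM medians used log2(TPM + 0.5). Simulated data for Notch-labelled against control (15583 genes, 200 changed) recovered changes of 1.5-fold in 38.8%, of 2-fold in 55.2% and of 4-fold in 72.7% of cases. Of the calls made there, 2.63% were false. The changed genes were drawn from all tested genes, while 63.7% of genes were called in the real comparison and members are more abundant. These shares therefore do not give the recovery for the members. Libraries of a group differed by more than counting error (chi-square per degree of freedom 4.36 to 20.8). Replicate numbers do not pair the libraries: deviations of same-numbered libraries correlated at -0.107 to 0.086 over 10376 genes in 10 pairs of groups.

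The members and gene lists were chosen with earlier results of these data known. Named by rule were, in each comparison, the 2 called members of each role with the largest fold change, with Ncl, Npm1, Fbl and Polr1a. Of the other lists, the 2 called genes with the largest fold change and Myc, Ubtf, Rrn3, Mki67 and Top2a could be named, of which some are printed. Members outside this rule that are named where few genes did not pass, or fell, and Hspa1a, Ddx3y and the transcript classes were chosen after their values were seen. Alternatives were other scaling, no filter, DESeq2 1.42.0, a fit of the compared groups alone, a replicate block, receptor segments left out and each library left out. RefSeq promoters of Bop1, Fbl, Npm1 and Rrp12 were not used here.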

Additional observations from a re-analysis of the deposited data

Results flagged for a closer look

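The effect of the Notch2 allele on ribosome biogenesis genes differed with the NIK allele by the interaction term of the edgeR fit, a test of the difference itself. It was negative at an adjusted p under 0.05 for 23 of the 35 genes, where 25.6% of all tested genes were negative and 23.9% positive (49.5% in all). The named values were, for RNA polymerase I, -0.61 (Polr1c) and -0.50 (Polr1a). For the box C/D particle they were -0.46 (Fbl) and -0.35 (Nop58), and for box H/ACA -0.92 (Nhp2) and -0.44 (Dkc1). Nolc1, Ncl and Npm1 stood at -0.89, -0.37 and -0.36. The small subunit factors Utp4 and Rrp9 were at -0.92 and -0.90, and the large subunit factors Rrp1b and Bop1 at -1.37 and -0.75, all on the log2 scale. The calls of Fbl, Nop58, Dkc1, Ncl and Npm1 were each lost without Notch-labelled library 1 (adjusted p of 0.0576, 0.155, 0.0733, 0.0574 and 0.0842) and without NF-kB-activated library 1 (0.134, 0.253, 0.183, 0.122 and 0.2), and some of them without other libraries as well. The Notch-labelled libraries also differ in labelled cell type, dominant V segments, stromal RNA and Ddx3y. These and the alleles cannot be told apart in the interaction term.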

How the results depend on the processing

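No called member changed sign in any alternative fit of the counts. On TPM, with no test, called rises changed sign for Polr1c (-0.22), Pes1 (-0.17) and Nolc1 (-0.03) in lymphoma against control and for Polr1c (-0.03) in lymphoma against doubly activated cells. The Notch-labelled or lymphoma libraries left out, TPM, and the members' median as a result were chosen after seeing the data. With library size alone as the scale the members' median log2 was 0.72 (Notch-labelled against control), -0.07 (doubly activated against control), 0.08 (doubly against NF-kB-activated), -0.77 (doubly against Notch-labelled), 0.22 (lymphoma against control) and -0.59 (interaction). The all-gene median was then 0.18, -0.06, -0.07, -0.20, -0.03 and -0.22. On TPM the members' medians were 0.69, -0.07, 0.02, -0.81, -0.02 and -0.65 in the same order, and 0.06 for lymphoma against doubly activated cells. RLE size factors and DESeq2 each gave -0.64 for doubly against Notch-labelled. The share of rises among all calls was 53.1% against 41.7% with library size alone for doubly activated against control, and 47.6% against 34.0% for doubly against NF-kB-activated. Members that fell with NF-kB activation numbered 5 with RLE, 0 in the compared groups alone and 1 with the Notch-labelled libraries left out. In doubly activated cells against control, falls were 2 with RLE, 3 with library size alone, 2 with DESeq2, 0 in the compared groups alone and 2 with lymphoma left out. Rises were 1 in the compared groups alone, where 1984 genes were called in all, against 3090. Doubly against NF-kB-activated, rises were 3 with library size alone and 3 with the Notch-labelled libraries left out, and falls were 1 with library size alone, without the filter or with lymphoma left out. Falls in lymphoma against doubly activated cells were 1 without the filter and 1 in the compared groups alone. Falls in lymphoma against control were 2 with the replicate block and 2 in the compared groups alone. The block, from numbers that are only a name, moved no other count of members by over 1.5 times. With receptor segments left out 1 member had a positive interaction. Leaving out each library in turn gave 1435 to 2291 called genes for NF-kB-activated against control (main 2388), with 0 to 4 member falls and medians of -0.24 to -0.12. Medians ran from 0.52 to 0.63 for Notch-labelled against control. For doubly activated against control, 1624 to 3081 genes were called, with 1 to 2 member rises and 0 to 2 falls. For doubly against NF-kB-activated, 725 to 2800 genes were called (main 2165), with 1 to 8 rises, 0 to 1 falls and medians of 0.10 to 0.20. For doubly against Notch-labelled, rises were 0 to 1 and medians -0.64 to -0.56. For lymphoma against doubly activated, rises were 10 to 19, falls 0 to 2 and medians 0.20 to 0.28, and against control falls were 2 to 4 and medians 0.22 to 0.31. For the interaction, positive values were 0 to 2, negative ones 11 to 22 and medians -0.46 to -0.29. The cause was not tested, beyond there being fewer libraries in the fits that leave some out. With 2 libraries a group, a call that misses the threshold does not show equal levels.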
